A study of Homo sapiens with 12 samples.

Results

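Messenger RNA recovered by immunoprecipitation (IP) of tagged RPL12 from the 80S ribosome fraction was compared with the RNA of the same fractions before IP, in all lines of the study. The comparison took in all 12 of the 12 libraries of the series, 6 IP libraries and 6 inputs, chosen by their labels and paired by line and replicate number into 6 fractions. HEK293 is an established human embryonic kidney line. Stable Flp-In T-REx derivatives of it overexpressed FLAG/HA-tagged RPL12 in 1 of 3 forms: wild type (WT), S38A (serine replaced by alanine) or S38D (serine replaced by aspartate). Every cell in the comparison, inputs included, thus carried a tagged RPL12 and was grown without further treatment. Each form had 2 input libraries and 2 IP libraries.

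Pooled 80S material came from a sucrose gradient and was kept in cycloheximide. A small aliquot of it gave the input, and the remainder went to anti-FLAG beads. Lines were expanded as monoclonal colonies after hygromycin selection, so form and clone cannot be told apart here. The labels describe no removal of endogenous RPL12. They list no IP from cells without a tagged protein, so RNA held by the beads without RPL12 cannot be told apart from RNA held through it. Library preparation started from a fixed mass of input RNA but from all of the IP material. The labels do not say that replicates were separate cultures, so p-values measure the spread between these libraries only.

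RPL12, also called uL11, belongs to the 60S subunit of the ribosome. It sits at the base of the ribosomal stalk with RPLP0, next to the site where elongation factors hydrolyse GTP. The 80S peak of a gradient holds single assembled ribosomes, including those with 1 ribosome on an mRNA, while mRNAs with many ribosomes sediment further. Polyadenylated RNA in an anti-FLAG IP of this peak is the RNA that stays with ribosomes that carry the tagged protein, together with any RNA that the beads hold by themselves.

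Gene counts ranged from 7434431 to 8723130 in the inputs and from 3186164 to 7430881 in the IP libraries. Each IP library was shallower than the input of its fraction. ERCC spike-in RNA, which was kept out of every gene value, took 0.305% ± 0.127 of counts in input and 3.43% ± 1.65 in IP libraries (SD, n = 6 each). Genes appear as Ensembl identifiers in the files, and no table used here pairs those with symbols. The 22 gene lists written by symbol, the tagged gene itself and the defining markers of HEK293 cells were therefore not analysed here, and classes were formed by transcript level, by direction in each fraction and by cell cycle lists that are defined on Ensembl identifiers.

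IP and input carried different proportions of many transcripts. At an adjusted p under 0.05 in edgeR, IP held more of 2690 genes and less of 2688, which is 15.9% of the 16920 genes tested in each direction and 31.8% together. With the fraction as a block, which compares each IP library with its own input, the numbers were 3804 and 4056. Line by line the contrasts called 1903 genes in WT, 0 in S38A (2575 at unadjusted p under 0.05, edgeR) and 824 in S38D, and with the block 4818, 2079 and 3379. The log2 ratio of each fraction, IP minus the input of that fraction in log2 CPM (CPM, gene counts scaled to a common library size with TMM factors), was above 0 in 6 of 6 fractions for 3436 genes, or 20.3%. It was below 0 in 6 of 6 for 3943 genes, or 23.3%. All 6 IP libraries lay above all 6 inputs for 1041 genes (6.15%) and below them for 1161 (6.86%). Another 1798 genes were higher in IP in exactly 3 fractions.

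Most called differences were moderate. The median log2 change was 0.56 among genes called higher and -0.58 among those called lower. At least 2-fold changes were called for 325 higher and 296 lower genes (1.92% and 1.75% of genes tested), of which 147 and 141 had no overlap between the 6 IP and the 6 input libraries. At least 4-fold changes were called for 17 higher and 30 lower genes. The strong gains and strong losses lay at different levels in the input: 53 of the 325 gains but 2 of the 296 losses had an input level of at least 100 CPM, against 2467 of all genes tested. Their median input levels were 12.8 CPM for gains and 4.48 CPM for losses, against 30.1 CPM over all genes tested. These levels enter the change itself and are given as a description.

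The split of these calls depended on how libraries were scaled. TMM scaling assumes that most genes keep their proportion, and with it the median log2 change of all genes was -0.04. With total counts the median was -0.25, and 1298 genes were called higher against 5251 lower. The genes above 0 in 6 of 6 fractions then numbered 1626 and those below 0 in all of them 6374. Values are therefore relative to the typical gene of a library and say nothing of absolute amounts.

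Identifiers were named by a rule on size: the largest changes among called genes with a mean of at least 5 CPM and no overlap between IP and input, which 991 higher and 1049 lower genes met. Lack of overlap and a single direction in all fractions thus followed from the choice and are no further evidence. The mean ran over all 12 libraries. Both gains named below passed it through IP alone (input means 1.54 and 1.88 CPM), and ENSG00000261366.1 through input alone (IP mean 3.45 CPM). The largest gain, ENSG00000159450.8, stood at 0.99 and 1.05 CPM in the WT inputs, 1.16 and 3.09 CPM in the S38A inputs and 1.09 and 1.83 CPM in the S38D inputs. IP raised these to 21.3 and 6.07 CPM (WT), 4.79 and 8.78 CPM (S38A) and 5.71 and 7.64 CPM (S38D). As the rule required, the lowest IP library lay above the highest input. The first WT IP library stood far above the other IP libraries. The change was 5.68-fold (log2 2.51, SE 0.37, edgeR adjusted p = 0.00049), and the log2 ratios of the fractions ran from 1.42 to 4.07. It rested on few reads, 8 to 30 counts per input and 23 to 68 per IP library. Without the first WT IP library the log2 change was 2.12, below the 2.28 of ENSG00000099866.10.

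ENSG00000099866.10 was the next largest gain under the rule. Its inputs held 3.65 and 1.83 CPM (WT), 0.95 and 1.65 CPM (S38A) and 2.41 and 0.80 CPM (S38D), and its IP libraries 20.1 and 12.6 CPM, 6.44 and 3.75 CPM, and 15.6 and 6.11 CPM. The groups did not overlap, as the rule required. The lowest IP library (3.75 CPM, the second of S38A) was close to the highest input (3.65 CPM, the first of WT). The change was 5.32-fold (log2 2.41, SE 0.34, edgeR adjusted p = 0.00043). In 5 fractions the log2 ratio lay between 2.38 and 2.60, while the second S38A fraction had 1.06.

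The largest losses under the rule had log2 ratios that varied less between fractions (SD 0.35 and 0.31) than the named gains (0.93 and 0.60). This describes the chosen identifiers only. ENSG00000261366.1 had 10.8 and 9.42 CPM in the WT inputs, 9.74 and 10.3 in S38A and 11.1 and 15.4 in S38D, against 4.56 and 2.82 CPM in WT IP, 3.80 and 2.71 in S38A IP and 2.23 and 4.59 in S38D IP. Its highest IP library therefore lay at under 50% of its lowest input. The change was -1.71 on the log2 scale (SE 0.22, edgeR adjusted p = 0.00027), or 3.26-fold lower in IP.

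ENSG00000169570.5 had 22.9 and 28.1 CPM in the WT inputs, 25.3 and 26.5 in S38A and 25.2 and 34.0 in S38D. The IP libraries of the WT line had 5.70 and 7.80 CPM, those of S38A 10.6 and 9.43 and those of S38D 6.20 and 12.5. All IP libraries lay below all inputs, again as the rule required. The change was -1.64 on the log2 scale (SE 0.18, edgeR adjusted p = 0.00013), 3.13-fold lower in IP. With 207 to 298 counts per input and 15 to 73 per IP library, it was the best measured of the 4. Interaction contrasts between lines did not pass for any of the 4 (edgeR adjusted p = 1.00), with 2 libraries a group. They left room for large differences: for ENSG00000159450.8 with the fraction as a block, the log2 change in S38A minus that in WT was -1.97 (edgeR adjusted p = 0.67), and in S38D minus WT -1.47 (edgeR adjusted p = 0.99). Within S38A alone none of the 4 was called (edgeR adjusted p = 0.13 to 0.22), and within S38D alone ENSG00000159450.8 was not (edgeR adjusted p = 0.070). With the fraction as a block all 4 were called within each line, with edgeR adjusted p = 0.0069 to 0.019 in S38A.

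**Figure D1:**
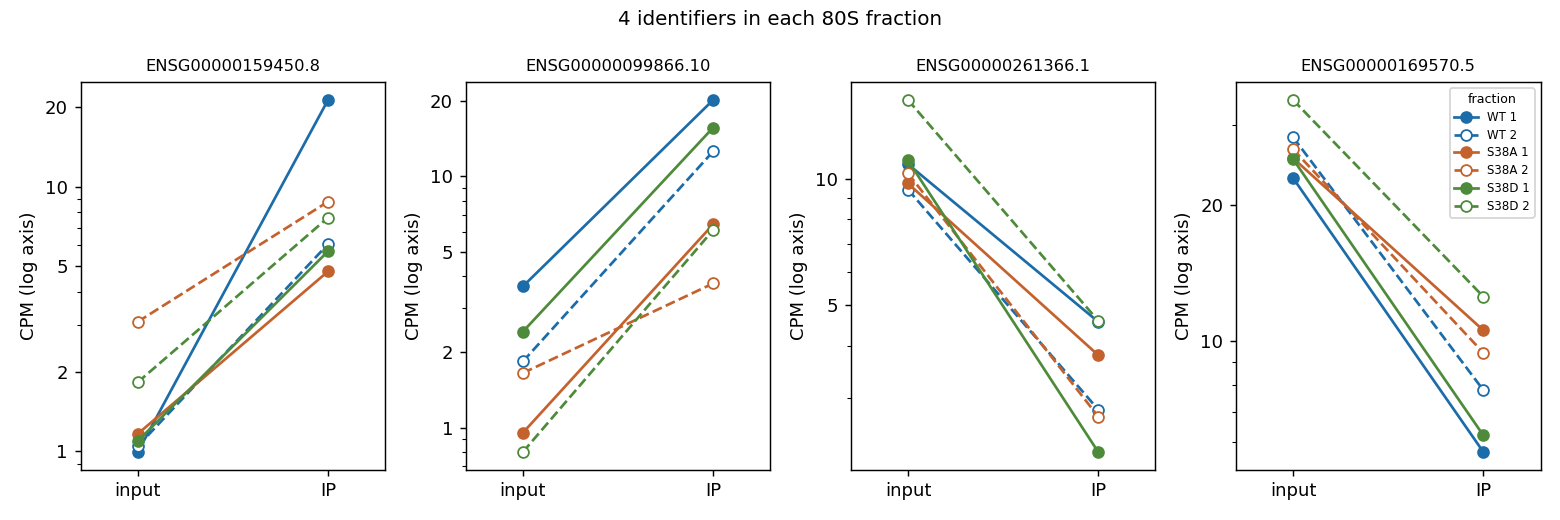
CPM (log axis) of the named identifiers in the input and the IP library of each fraction, joined by a line per fraction. They are the 2 largest gains and the 2 largest losses among called genes with a mean of at least 5 CPM and no overlap. Larger changes were called among genes outside this rule. All lines rise for ENSG00000159450.8 and ENSG00000099866.10 and all fall for ENSG00000261366.1 and ENSG00000169570.5, as the rule that chose them required. The first WT IP library stands apart at 21.3 CPM in the first panel.

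Whether the pattern belonged to all lines was examined by calling genes in 2 lines and measuring them in the third, whose libraries played no part in the call. Genes called higher in S38A and S38D numbered 1795. In the WT fractions, 1680 of them (93.6%) were higher in IP in both fractions, against 30.6% of all genes tested, and their median log2 ratios were 0.69 and 0.58. Of 1600 genes called lower, 1522 (95.1%) were lower in both WT fractions, against 38.6% of all genes, with medians of -0.77 and -0.73. Genes that S38A and S38D gained or lost in IP were thus mostly gained or lost in WT.

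The S38A line kept the direction, with medians of smaller size than those of the other lines. Each line was measured on its own set of genes, so these medians do not compare sizes on the same genes. Of 2074 genes called higher in WT and S38D, 1949 (94.0%) were higher in both S38A fractions, against 37.8% of all genes, with medians of 0.41 and 0.44. Of 1878 called lower, 1822 (97.0%) were lower in both, against 38.4% of all genes, with medians of -0.43 and -0.55. In S38D, 1298 of 1307 genes called higher in WT and S38A (99.3%, against 35.7% of all genes) were higher in both fractions, with medians of 0.70 and 0.78. Of 1402 called lower, 1381 (98.5%, against 41.8%) were lower in both, with medians of -0.57 and -0.68.

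The size of strong changes carried over less well to S38A than did their direction. Of 463 genes called at least 2-fold higher in WT and S38D, 64 (13.8%) had a mean log2 ratio of at least 1 in S38A, although 458 had a ratio above 0, and their median there was 0.64 against 1.29 in the lines that chose them. For WT the corresponding share was 80.3% of 147 genes, with a median of 1.49, and for S38D 74.3% of 241 genes, with a median of 1.21. On the lower side the shares were 22.6% of 296 genes in S38A, 69.4% of 180 in WT and 59.2% of 211 in S38D. This difference between lines was not tested as a set. Gene by gene, interaction contrasts in edgeR called 0 of 16920 genes for S38A versus WT, S38D versus WT and S38D versus S38A, with 393, 134 and 109 at unadjusted p under 0.05. With the fraction as a block they again called 0, with 1177, 460 and 578 at unadjusted p under 0.05. Such counts do not show that the lines act alike.

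**Figure D2:**
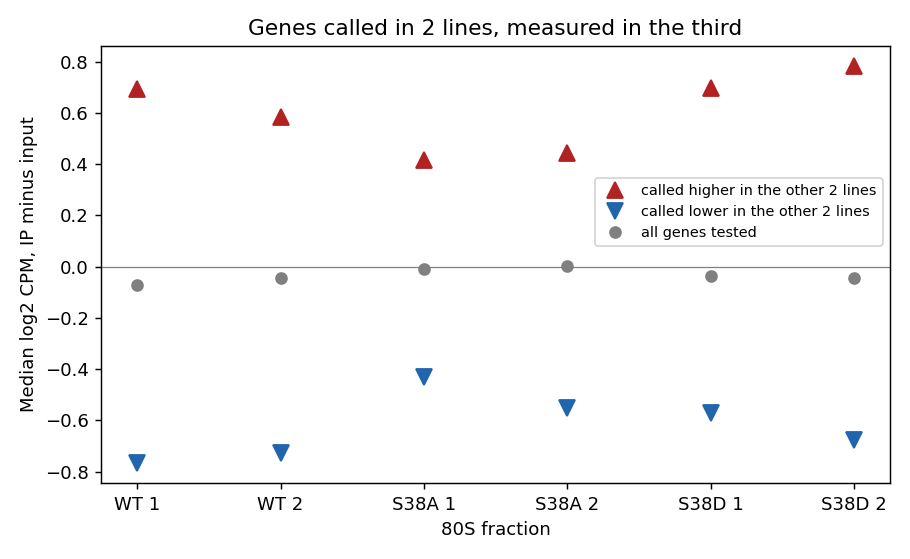
Median log2 ratio of IP over input in each of the 6 fractions for genes called higher (upward triangles) or lower (downward triangles) in the other 2 lines, with the median of all genes tested as grey points. Medians of the first set lie between 0.41 and 0.78 and of the second between -0.77 and -0.43, and the S38A fractions lie nearest to 0 for the first set.

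The same sets can be followed without any scaling factor, as their share of all gene counts in a library. Genes called higher in S38A and S38D took 27.9% and 28.4% of the counts of the WT inputs and 41.7% and 39.9% of those of WT IP. Genes called higher in WT and S38D rose from 30.1% and 26.3% in the S38A inputs to 37.8% and 33.9% in S38A IP, and the corresponding S38D shares were 17.7% and 17.2% in input and 26.7% and 27.3% in IP. The share of each set was larger in IP in both fractions of the line in which it was measured. The lower sets moved from 9.19% and 9.93% to 4.35% and 5.44% in WT, from 11.5% and 13.2% to 7.90% and 8.60% in S38A, and from 8.74% and 9.01% to 5.09% and 4.83% in S38D.

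Fractions shared their profile more closely among abundant transcripts. Across all genes tested, log2 ratios of 2 fractions of one line correlated at 0.47 to 0.58 and those of different lines at 0.40 to 0.63. Over the 2467 genes with an input level of at least 100 CPM, these ranges were 0.75 to 0.96 within a line and 0.64 to 0.95 between lines. Genes are not independent replicates, and these values describe the libraries. Fractions of different lines thus resembled each other about as closely as fractions of one line.

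Fractions differed in how far genes moved. Over the abundant genes, the SD of the log2 ratio was 0.65 and 0.45 in the WT fractions, 0.30 and 0.36 in the S38A fractions and 0.41 and 0.48 in the S38D fractions. The slope of the ratio of a fraction on the mean ratio of the other lines was 1.42 and 1.16 (WT), 0.60 and 0.65 (S38A) and 0.96 and 1.11 (S38D). At least 2-fold ratios in either direction were seen for 17.3% of genes in the first WT fraction and for 3.56% in the second S38A fraction, which are the extremes. The first WT IP library was also the shallowest, at 3186164 counts, and the second S38A IP library the deepest, at 7430881. With all libraries thinned to the depth of the shallowest, the SDs were taken again over the abundant genes only. They were 0.65, 0.45, 0.31, 0.37, 0.41 and 0.48 in the same order as before. The shares of genes with 2-fold ratios were not taken after thinning. Spike-in RNA took 5.43% and 2.57% of counts in WT IP, 2.15% and 1.44% in S38A IP and 3.79% and 5.18% in S38D IP. Its part in the size of the changes was not tested.

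Abundance of a transcript in 80S input went with its recovery. Genes were sorted into 10 classes of 1692 genes by their input level in the other lines, so that the classes and the ratios shared no library. Input levels and numbers of called genes quoted for a class belong to the class of the same rank in a sort over all 6 inputs. Class 10, with a median input level of 174 CPM, had median log2 ratios of 0.30 and 0.11 in the WT fractions, 0.17 and 0.13 in the S38A fractions and 0.23 and 0.27 in the S38D fractions. It was above 0 in 6 of 6 fractions, with a mean of 0.20 ± 0.08 (SD, n = 6). In each fraction between 60.7% and 71.8% of its genes were higher in IP.

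Class 2, with a median of 2.64 CPM, lay below 0 in 6 of 6 fractions, at -0.24 and -0.07 (WT), -0.09 and -0.07 (S38A) and -0.16 and -0.21 (S38D). Classes 3, 4, 5 and 7 also had medians below 0 in all fractions, and class 8, at 70.1 CPM, was above 0 in 3 of 6. Class 1, with the least abundant genes at a median of 1.17 CPM, broke the order: its mean was -0.05 ± 0.06, above the -0.14 ± 0.07 of class 2 (SD, n = 6). After thinning to equal depth its mean was 0.018 and that of class 10 was 0.20. A thinned value was not taken for class 2. The difference between class 10 and class 2 was 0.54 and 0.18 (WT), 0.26 and 0.20 (S38A) and 0.38 and 0.48 (S38D), a mean of 0.34 ± 0.15. Class 10 had the highest mean of the 10 classes and class 2 the lowest, so this is the widest difference between classes. With total counts class 10 averaged -0.016, and its difference from class 2 was 0.31 ± 0.13, so the sign of the most abundant class depended on scaling and the order of these 2 classes did not. Whether that order depended on depth was not tested.

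**Figure D3:**
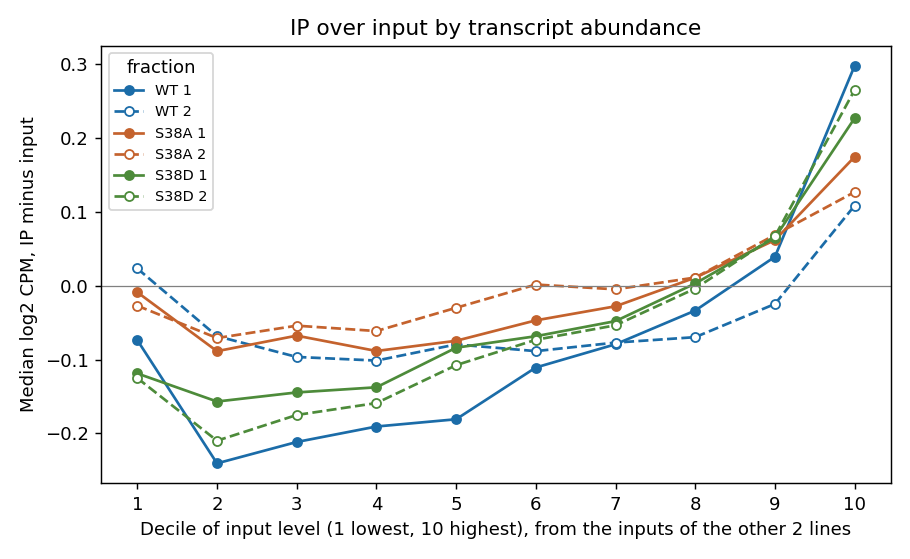
Median log2 ratio of IP over input in 10 classes of genes, from the lowest to the highest input level in the other 2 lines, with a line per fraction. Class 10 lies between 0.11 and 0.30 in all 6 fractions, and class 2 lies between -0.24 and -0.07.

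IP libraries drew their counts from fewer genes, a property that needs no scaling. The most abundant genes that together made up 50% of the counts numbered 2111 and 2001 in the WT inputs, 2182 and 2357 in S38A and 2184 and 2160 in S38D. In IP they numbered 1263 and 1462, 1794 and 2055, and 1534 and 1425. The number was lower in IP in 6 of 6 fractions, by 577 ± 208 genes (SD, n = 6; two-sided exact test by swapping labels inside fractions, p = 0.031, the lowest value available from 64 assignments, and 0.042 after adjustment over 4 measures).

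The 100 most abundant genes of each library held 10.0% ± 1.18 of counts in input and 14.5% ± 2.51 in IP (SD, n = 6 each), higher in IP in 6 of 6 fractions (exact permutation, p = 0.031, adjusted 0.042). The 100 genes of highest input level held 9.92% ± 1.22 in input and 13.9% ± 2.22 in IP, again higher in 6 of 6 (exact permutation, p = 0.031, adjusted 0.042), so the concentration was on transcripts already abundant in the 80S fraction. The S38A fractions moved least on the first of these measures, from 9.91% and 7.99% to 12.8% and 10.2%.

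Detection of rare transcripts differed less. After thinning every library to 3186164 counts, 20806 to 21372 identifiers had at least 1 count in an input and 20121 to 21672 in an IP library. The number was lower in IP in 5 of 6 fractions, and the difference did not pass (exact permutation, p = 0.16, adjusted 0.16). Of 30268 identifiers found in any thinned library, 2 were at 0 in all 6 inputs and above 0 in all 6 IP libraries, and 4 showed the opposite. With 4 or more libraries of the other side above 0, these numbers were 38 and 70.

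**Figure D4:**
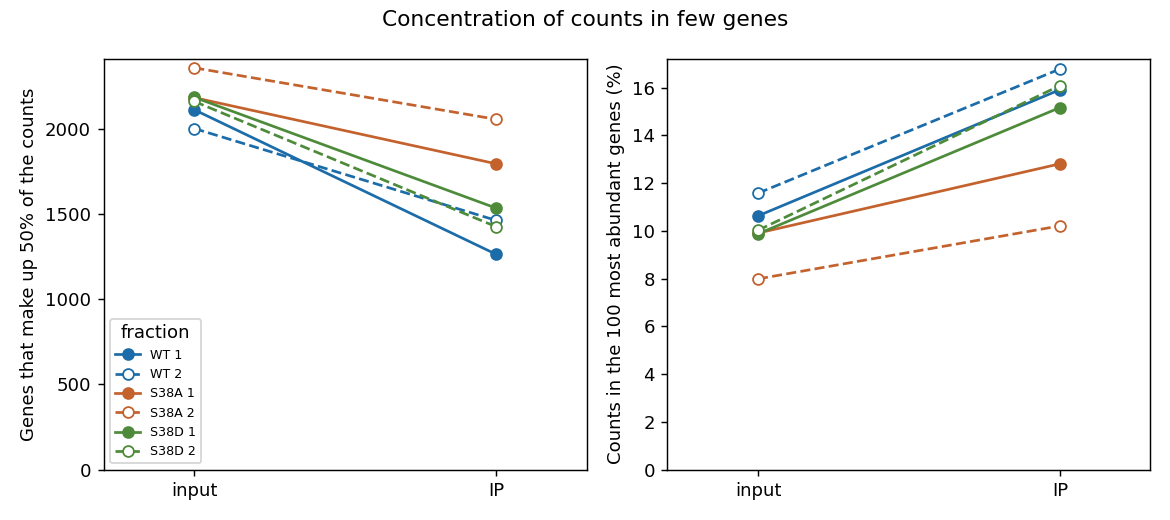
Number of most abundant genes that make up 50% of the counts (left) and share of counts in the 100 most abundant genes (right) in the input and the IP library of each fraction. The left lines all fall, from 2001 to 2357 genes in input to 1263 to 2055 in IP, and the right lines all rise.

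The title of the study concerns translation during mitosis, and markers of the cell cycle phases were the transcript classes that could be matched by Ensembl identifier. Cells in G1 prepare for replication, S phase cells copy their DNA, and G2M cells prepare for and go through division. The lists came from marker pairs shipped with the scran package and were chosen after results of these data had been seen, so they are no independent evidence. Of 254 G1 markers 239 were tested, of 277 S markers 251 and of 215 G2M markers 208. All 3 lists held abundant transcripts, with median input levels of 66.3, 68.8 and 63.6 CPM in the order G1, S and G2M, against 30.1 CPM over all genes tested. Calls were more frequent near such levels than over all genes. Of 1692 genes each, the classes at 70.1 and 98.4 CPM had 358 and 455 called higher and 392 and 330 called lower. The counts of list members given below are not adjusted for abundance. Called losses of 2-fold or more were rare among abundant genes. Of the 296 over all genes, 2 had an input level of at least 100 CPM, against 53 of the 325 such gains. Few or no such losses in a list are therefore not read as a trait of its markers.

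G1 markers were the list with a median above 0 in 6 of 6 fractions, against 5 for S and 4 for G2M markers. In IP, 67 of 239 were called higher and 36 lower (28.0% and 15.1%, against 15.9% of all genes tested each way), and 93 were higher in 6 of 6 fractions against 51 lower (38.9% and 21.3%, against 20.3% and 23.3% of all genes). Their median log2 ratios were 0.14 and 0.07 in the WT fractions, 0.07 and 0.07 in the S38A fractions and 0.14 and 0.18 in the S38D fractions, where all genes ranged from -0.07 to 0.00. The fitted median was 0.12, with the middle of the list between -0.19 and 0.34, against -0.04 for all genes. Few members moved far: called changes of 2-fold or more were seen in 2 members upward and 1 downward, against 1.92% and 1.75% of all genes.

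S markers were spread to both sides. Of 251, 61 were called higher and 51 lower (24.3% and 20.3%, against 15.9% of all genes each way). Both shares lay between those of the classes at 70.1 and 98.4 CPM. In 6 of 6 fractions 77 were higher and 66 lower (30.7% and 26.3%, against 20.3% and 23.3% of all genes). Their medians were 0.09 and -0.02 (WT), 0.03 and 0.03 (S38A) and 0.02 and 0.06 (S38D), and called changes of 2-fold or more were seen in 8 members upward and 0 downward (1.92% and 1.75% of all genes). The fitted median was 0.05, and without the second S38A IP library it was 0.0011, where the median of all genes was -0.06.

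In WT, the line with the most called genes, the median of G2M markers differed in sign between the 2 fractions. Of 208 G2M markers over all lines, 52 were called higher, a larger share than the 15.9% of all genes called each way. That share lay between those of the classes at 70.1 and 98.4 CPM, so it is not read as a trait of these markers. The median level of the list was 63.6 CPM. Another 29 (13.9%) were called lower, a smaller share than in all genes and in either of these classes. In 6 of 6 fractions 63 were higher and 43 lower (30.3% and 20.7%, against 20.3% and 23.3%). Their median was 0.25 in the first WT fraction and -0.11 in the second, which is the widest gap between 2 fractions of a line for any of the 3 lists. It was 0.02 and -0.01 in S38A and 0.02 and 0.05 in S38D. The fitted median of 0.04 thus averages over WT fractions of opposite sign. Without the first WT IP library it was -0.03, where the median of all genes was -0.07. In all, 9 of the 208 G2M members had a called gain of 2-fold or more and 0 a called loss of that size. Over all genes these shares were 1.92% and 1.75%, not matched for abundance. Such losses had a median input level of 4.48 CPM over all genes, far below that of this list.

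The lists were then set against genes of like abundance, by subtracting from each ratio the median of its abundance class in that fraction. G1 markers stayed above 0 in 6 of 6 fractions, at 0.14, 0.09, 0.05, 0.04, 0.11 and 0.13 in the order WT, S38A and S38D. S markers were above 0 in 3 of 6 fractions and averaged 0.01, and G2M markers were above 0 in 3 of 6 and averaged 0.03. As a share of all counts, which needs no scaling, G1 markers took 1.93% in both input and IP on average (1.89% to 1.99% in the inputs and 1.89% to 2.00% in IP), with 3 of 6 fractions higher in IP than in input. S markers took 2.43% in input and 2.47% in IP, and G2M markers 1.75% in both. The shift of G1 markers was thus a shift of the typical member relative to the typical gene, and the list as a whole took the same part of the counts before and after IP. With total counts the medians were -0.10 for G1, -0.16 for S and -0.17 for G2M markers, all above the -0.25 of all genes, and more members of each list were called lower than higher.

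**Figure D5:**
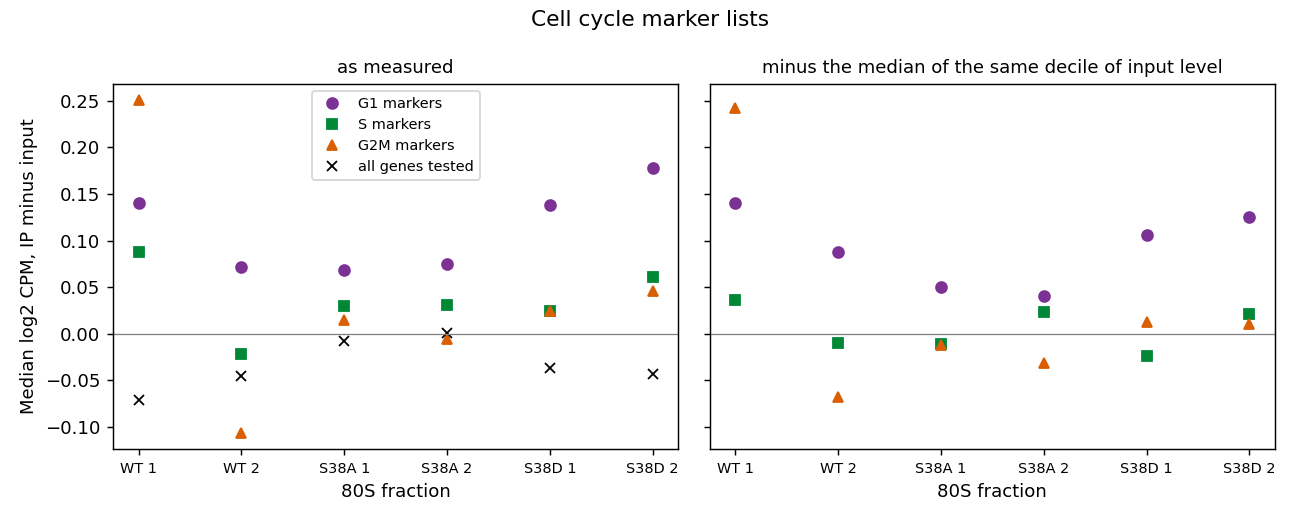
Median log2 ratio of IP over input of G1, S and G2M markers in the 6 fractions, as measured (left, with all genes tested as crosses) and after subtraction of the median of the abundance class of each gene (right). G1 markers lie above 0 in all fractions of both panels, and G2M markers lie at 0.25 and -0.11 in the WT fractions of the left panel.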

How the data were processed

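Polyadenylated RNA was sequenced from 6 inputs and 6 IP libraries, in 6 groups of 2. The authors deposited raw read counts for 57820 Ensembl genes and 92 ERCC controls. The submitters' processing notes list the hg19 build, DESeq2, STAR 2.4.2a and bcl2fastq 2.16.0.10. Not given in the sources used here are the read counter, its strand and multi-mapping rules and the annotation. Overlapping, antisense and near-identical genes are therefore uncertain. The reference table held 59792 genes, 0 with an Ensembl identifier.

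All 12 libraries were fitted in R 4.3.3 with edgeR 4.0.16 (filterByExpr with a minimum count of 10, TMM, glmQLFit and glmQLFTest, Benjamini-Hochberg over 16920 genes), with the mean of the 3 IP groups minus that of the 3 input groups as the contrast. The fit was run on simulated libraries drawn independently, with no shared fractions and few changed genes, unlike these data. There it recovered 76.3% of 97 2-fold and 96.9% of 96 4-fold changes, with 12 false calls. A prior count of 2 was added for log2 CPM. From scran 1.30.0, markers of 1 phase only were kept that occurred in 20 or more pairs and exceeded their partner in a share of 0.8 or more. The rule for named identifiers (called, at least 5 mean CPM, no overlap, largest change, 2 each way) dropped its condition on symbols. Members and lists were chosen with earlier results of these data known.

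Per the labels, an IP library and the input with its number share a fraction. Their deviations from group means correlated across genes at 0.28 (WT), 0.64 (S38A) and 0.54 (S38D). Such a correlation does not by itself show a shared fraction, so the pairing rests on the labels. The main fit did not use the pairing. Alternatives were RLE factors, total counts, no filter, a mean of at least 10 CPM, DESeq2 1.42.0, voom in limma 3.58.1, the fraction as a replicate block, each line alone and omission of each library. Chosen after seeing the data were thinning to 3186164 counts, omission of the first WT fraction (both libraries), the block in contrasts within and between lines, the cell cycle lists, the held-out sets, the abundance classes and the concentration measures.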

Additional observations from a re-analysis of the deposited data

Results flagged for a closer look

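Of 27 sets of 6 values examined for a library or fraction far from the rest, 3 had one, where chance gives about 1 in 20. ENSG00000159450.8 had a log2 ratio of 4.07 in the first WT fraction, far above its other fractions. ENSG00000099866.10 had 1.06 in the second S38A fraction, far below its others. ENSG00000261366.1 reached 3.97 in log2 CPM in the second S38D input, above the other inputs. ERCC spike-in RNA, outside the gene comparison, averaged 3.43% of counts in IP against 0.305% in input libraries.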

How the results depend on the processing

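Thinning, omission of the first WT fraction and blocked contrasts of single lines were chosen after seeing the data; the other alternatives were planned. With total counts 1298 genes were called higher and 5251 lower, 1626 were higher and 6374 lower in 6 of 6 fractions, the median log2 change was -0.10, -0.16 and -0.17 for G1, S and G2M markers, and abundance classes 1 and 10 stood at -0.22 and -0.016. With the fraction as a replicate block 3804 genes were called higher and 4056 lower. Thinned to equal depth, class 1 stood at 0.018. Within single lines 1903 genes were called in WT, 0 in S38A (2575 at unadjusted p under 0.05, edgeR) and 824 in S38D, and with the replicate block 4818, 2079 and 3379. Contrasts between lines called 0 with and without the block. With 1 library left out, calls numbered 4007 to 5770, 1993 to 2917 higher and 1968 to 2853 lower, and medians were 0.08 to 0.15 for G1, 0.0011 to 0.082 for S and -0.03 to 0.07 for G2M markers. The lowest S value came without the second S38A IP library. The 4 named identifiers were called in the same direction in each alternative over the lines that tested them (a mean of at least 10 CPM kept ENSG00000169570.5 only). Within S38A alone none was called without the block, and all 4 were with it. The causes were not tested. Identifiers at 1 to 30 counts carry wide counting error.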
